A study of Mus musculus with 12 samples.

Results

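Withdrawal of leukaemia inhibitory factor (LIF) from wild type mouse embryonic stem (ES) cells was followed on 6 of the 12 arrays of the series. They were chosen by their titles: 3 arrays labelled Day 0 without LIF and 3 arrays labelled Day 0 with LIF. The cells were E14, a male ES cell line of strain 129/Ola, and the genotype label of all 6 was wild type. The label 4-hydroxytamoxifen (OHT) stood on these 6 arrays and on the other 6, for 16 h at 1 uM per the protocol, and the label did not differ between the cultures. The labels do not settle whether the wild type Day 0 cells were in fact exposed to it. Cells without LIF had been left to differentiate spontaneously for 4 days, and cells with LIF were kept in the maintenance medium, in both cases feeder free on gelatin with fetal calf serum. The other 6 arrays held deleted cells, labelled Day 4, with genotype Hdac1-/-; Hdac2-/wt after induction of the CreER recombinase, again 3 without LIF and 3 with LIF. All cells came from 1 line. The labels do not say whether the arrays of a culture came from independent dishes, so p-values describe the spread among these arrays, which may be technical.

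LIF binds the receptor pair Lifr and Il6st, whose Janus kinases phosphorylate the transcription factor Stat3. In mouse ES cells grown in serum, Stat3 maintains a set of transcription factors, among them Klf4, Tfcp2l1, Gbx2 and Esrrb, that hold the naive state, the state of the pre-implantation epiblast. When LIF is taken away, ES cells leave that state, pass through one that resembles the post-implantation epiblast, and begin to differentiate.

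Culture labels were taken from the table keyed by sample. The column names of the other deposited table put every array in the opposite culture (0 of 12 arrays in the same culture, 12 of 12 in the same genotype), and under those names every LIF difference below would change sign on the same 6 arrays. How genes of the LIF pathway behaved under each naming was known when this one was adopted, so their direction is no test of it. Between 15137 and 17690 probes were detected on the arrays without LIF, and between 14872 and 16867 on those with LIF, out of 45281. Log2 values correlated at 0.974 to 0.994 within the wild type groups and at 0.944 to 0.963 between them. Array 1 without LIF stood somewhat apart, with correlations of 0.975 and 0.981 to arrays 2 and 3, which correlated at 0.994 with each other. The label ES cell was checked against its markers: Pou5f1 and Sox2, which define pluripotent cells, were detected on 3 of 3 arrays of both cultures. In bulk RNA, fewer cells of a type and less RNA per cell cannot be told apart.

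The promoters of 6 genes are shown, each from a gene named below and each holding a match to the motif searched for. Socs3, the feedback inhibitor of the LIF pathway, was lower without LIF. The other promoters are those of 3 contractile genes and 2 guanylate-binding protein genes, which were higher. Sequences are from RefSeq on GRCm38.p6, 250 bases before to 50 after the start of the gene, 5′ to 3′ on the gene's strand. Capitals mark the match to a motif, searched on both strands: the STAT motif TTCNNNGAA in Socs3, the CArG box of serum response factor (SRF) in the contractile genes, and an interferon-type motif (TTTC, any 2 bases, TTTC) in the guanylate-binding protein genes. The windows are chr11:117969317-117969616 (minus strand, match starting at -154) for Socs3, chr8:123894726-123895025 (minus, -73) for Acta1, chr2:114052826-114053125 (minus, -47) for Actc1, chr2:156775214-156775513 (plus, -161) for Myl9, chr3:142594597-142594896 (plus, -137) for Gbp2b and chr3:142620413-142620712 (plus, -59) for Gbp2.
Socs3: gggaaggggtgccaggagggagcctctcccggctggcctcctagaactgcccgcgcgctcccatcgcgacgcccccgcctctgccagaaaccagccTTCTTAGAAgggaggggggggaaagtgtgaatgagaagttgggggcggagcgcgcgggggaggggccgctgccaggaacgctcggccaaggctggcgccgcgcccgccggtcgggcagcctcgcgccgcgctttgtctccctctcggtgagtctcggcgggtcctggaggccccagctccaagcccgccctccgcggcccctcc
Acta1: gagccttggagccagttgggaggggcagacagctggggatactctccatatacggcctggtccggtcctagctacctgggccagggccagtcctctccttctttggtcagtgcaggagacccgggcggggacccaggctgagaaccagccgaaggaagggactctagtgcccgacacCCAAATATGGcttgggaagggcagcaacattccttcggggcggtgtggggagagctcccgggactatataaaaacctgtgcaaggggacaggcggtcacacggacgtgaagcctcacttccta
Actc1: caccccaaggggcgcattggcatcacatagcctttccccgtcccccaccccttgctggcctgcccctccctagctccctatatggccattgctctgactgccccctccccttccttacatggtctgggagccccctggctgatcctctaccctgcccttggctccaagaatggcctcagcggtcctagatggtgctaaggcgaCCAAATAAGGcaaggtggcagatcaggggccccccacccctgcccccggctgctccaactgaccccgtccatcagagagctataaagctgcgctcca
Myl9: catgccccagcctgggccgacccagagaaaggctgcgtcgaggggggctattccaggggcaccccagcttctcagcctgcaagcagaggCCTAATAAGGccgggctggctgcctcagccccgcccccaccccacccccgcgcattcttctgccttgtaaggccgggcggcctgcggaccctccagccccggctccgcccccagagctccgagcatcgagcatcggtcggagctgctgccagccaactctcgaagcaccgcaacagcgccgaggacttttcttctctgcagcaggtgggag
Gbp2b: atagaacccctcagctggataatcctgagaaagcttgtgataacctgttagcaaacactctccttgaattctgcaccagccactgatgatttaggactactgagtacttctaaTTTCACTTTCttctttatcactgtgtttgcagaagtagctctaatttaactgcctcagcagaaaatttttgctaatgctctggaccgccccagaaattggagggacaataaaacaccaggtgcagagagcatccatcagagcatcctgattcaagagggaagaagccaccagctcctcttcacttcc
Gbp2: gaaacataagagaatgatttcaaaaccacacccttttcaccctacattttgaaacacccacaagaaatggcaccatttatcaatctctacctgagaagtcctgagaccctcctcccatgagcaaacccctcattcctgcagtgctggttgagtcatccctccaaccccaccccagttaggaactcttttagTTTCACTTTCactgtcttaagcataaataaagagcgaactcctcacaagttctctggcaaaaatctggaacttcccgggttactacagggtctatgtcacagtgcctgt

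The 3 motifs differ in how common they are. Of 32851 RefSeq promoter windows of the same length, 8.3% held the STAT motif, 1.63% a CArG box and 3.44% the interferon-type motif. Among the tested genes with a window, the CArG box stood in 24 of 862 genes that were higher without LIF (2.78%), in 8 of 779 that were lower (1.03%) and in 135 of 7757 in all (1.74%). It stood in 5 of the 13 genes with a window on the list of actin, muscle and SRF or YAP target genes. The STAT motif stood in 68 of 862 higher genes (7.89%), in 67 of 779 lower genes (8.6%) and in 615 of 7757 in all (7.93%). For the interferon-type motif these were 36 of 862 (4.18%), 30 of 779 (3.85%) and 262 of 7757 (3.38%). The interferon-type motif was in 4 of 7 genes of the interferon-stimulated list. The STAT motif was in 3 of 17 genes of the LIF list and in 3 of 7 of the interferon-stimulated list. Among genes named below, Klf4, Gbx2, Tfcp2l1, Zfp42 and Tcl1 had no STAT motif in their windows. Tpm1, Acta2 and Ccn1 had no CArG box, and Oasl2 had no interferon-type motif. Further windows, not shown, also held matches. The STAT motif was in Esrrb, Emp1, Nupr1, Dnmt3l and Tgm1, which fell, and in Lin28a, Otx2, Irf1, Dab2 and Bst2, which rose. The interferon-type motif was in Ifitm2 and Tgm1, which fell, and in Bst2, Kif1a, Igf2 and Vldlr, which rose. Igf2 also had a CArG box in a window. A match describes the letters in these windows and not a bound site.

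After 4 days without LIF, the LIF-response gene Socs3 and the naive pluripotency genes Zfp42, Esrrb and Klf4 were 5.45-fold to 8.37-fold lower in the wild type cells. Guanylate-binding protein genes, contractile genes such as Acta1 and Myl9, and the epiblast genes Otx2 and Dnmt3b were higher. Of 9527 genes tested with limma over all 12 arrays, 2010 changed at an adjusted p under 0.05 (21.1%): 1054 were higher (11.1%) and 956 were lower (10.0%) without LIF. At least a 2-fold change was seen in 126 of the higher and 135 of the lower genes, and at least a 4-fold change in 12 and 13. The 3 arrays without LIF did not overlap the 3 with LIF in 3334 genes (35.0%). Over all genes tested the median log2 difference was 0.0024. Leaving out array 1 without LIF left 1759 genes changed, 1542 of them among the 2010. The share of changed genes that were higher, 52.4%, was 31.9% when arrays were scaled to their medians in place of quantile normalization (229 higher, 488 lower).

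**Figure D1:**
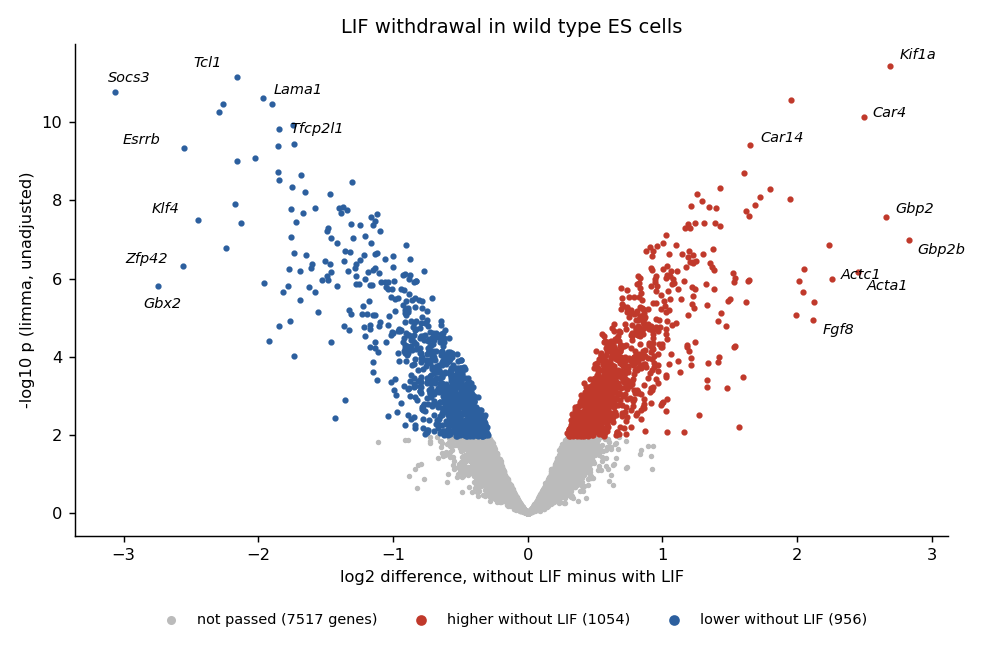
Log2 difference (wild type cells without LIF minus with LIF, x axis) against -log10 of the unadjusted limma p-value (y axis) for 9527 genes, with 3 arrays per group. The 1054 genes that were higher without LIF are red and the 956 that were lower are blue; Socs3 lies farthest to the left at -3.07 and Gbp2b farthest to the right at 2.83.

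Counts of called genes on the lists from here on stand beside 21.1% of all genes called, 11.1% higher and 10.0% lower. The LIF pathway was read first, from receptor to targets. Of 18 tested genes of the LIF receptor, JAK-STAT3 and LIF response list, 10 fell, 1 rose and 7 did not pass, with a median log2 difference of -0.41. Receptor genes showed no called change: Il6st, the shared signalling chain gp130, differed by -0.03 ± 0.13 (SE, adjusted p = 0.888), and Lifr, the LIF-binding chain, by -0.11 ± 0.16 and was detected on only 1 of 3 arrays of each culture. Socs3, on chromosome 11 (probe ILMN_2618176), the inhibitor that Stat3 induces against its own receptor, read 7.83, 7.70 and 7.78 on the log2 scale without LIF, against 10.93, 11.01 and 10.56 with LIF. That is a difference of -3.07 ± 0.16 (SE, n = 3 arrays per culture, adjusted p = 4.76e-08), or 8.37-fold lower, and the cultures lay far apart on every array. Its promoter is among those printed above, with 1 STAT motif. Stat3 itself, on chromosome 11, read 8.36, 8.38 and 8.01 without LIF, against 8.98, 9.08 and 8.56 with LIF, a difference of -0.62 ± 0.15 (adjusted p = 0.0113). Its arrays did not overlap, but the call was lost without array 3 lacking LIF (-0.50, adjusted p = 0.0602) or array 2 with LIF (-0.52, adjusted p = 0.0549). A further Stat3 probe differed by -0.71 and passed, and another by -0.17 and did not. Jak1, a kinase at the receptor, was the gene that rose (0.59 ± 0.19, adjusted p = 0.0411); it overlapped between cultures, and 6 of the 12 single-array omissions ended the call (adjusted p 0.0524 to 0.154): arrays 1 and 3 without LIF, arrays 2 and 3 with LIF, and array 2 without LIF and array 3 with LIF of the deleted cells.

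Transcription factors that act below Stat3 fell as well. Gbx2, a homeobox factor on chromosome 1, read 6.77, 6.43 and 6.69 without LIF, where 2 of 3 arrays detected it, against 8.28, 9.63 and 10.21 with LIF (-2.74 ± 0.34, adjusted p = 8.17e-05). Klf4, a zinc finger factor used in reprogramming to pluripotency, on chromosome 4 (probe ILMN_1241903), read 6.83, 7.16 and 7.31 without LIF, against 9.21, 9.86 and 9.56 with LIF (-2.45 ± 0.22, adjusted p = 6.15e-06). Its other probes, at -1.96 and -2.26, passed as well. Tfcp2l1, a factor that can carry self-renewal in place of Stat3, read 9.42, 9.28 and 9.40 without LIF, against 11.44, 11.04 and 11.16 with LIF (-1.84 ± 0.11, adjusted p = 1.34e-07). In all of these the lowest array with LIF was above the highest without. Klf5, a relative of Klf4 (-1.21 ± 0.20), and Bcl3, a nuclear member of the IκB family (-1.18 ± 0.14), fell too. The count of falling genes on this list was 6 without array 3 lacking LIF and 7 to 11 without any other single array.

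Naive pluripotency genes moved in 1 direction. Of 19 tested, 14 fell, 0 rose and 5 did not pass, and all 19 had a negative difference, with a median of -1.75. Zfp42, the gene of the naive marker Rex1 on chromosome 8, read 8.61, 9.09 and 8.86 without LIF, against 10.78, 11.64 and 11.82 with LIF (-2.56 ± 0.29, adjusted p = 4.09e-05). Esrrb, an orphan nuclear receptor on chromosome 12 (probe ILMN_1228497), read 10.26, 10.11 and 10.30 without LIF, against 12.66, 12.84 and 12.82 with LIF (-2.55 ± 0.17, adjusted p = 2.92e-07). Tcl1, a co-activator of the kinase Akt, read 7.92, 7.73 and 7.85 without LIF, against 10.09, 10.03 and 9.86 with LIF (-2.16 ± 0.10, adjusted p = 3.47e-08). For these 3 genes the gap between the cultures was wider than the whole range within either. Further falls were those of Jam2, a junctional adhesion molecule (-2.13 ± 0.20), the F-box gene Fbxo15 (-1.85 ± 0.13), the T-box factor Tbx3 (-1.85 ± 0.12), the nuclear receptor gene Nr5a2 (-1.84 ± 0.14), Klf2 (-1.76 ± 0.27), the adhesion gene Pecam1 (-1.32 ± 0.14) and Prdm14, which represses primed-state genes (-0.91 ± 0.14). Prdm14 was detected on 1 of 3 arrays without LIF.

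Nanog, the homeobox factor most tied to the naive state, did not pass. It read 11.22, 11.98 and 11.89 without LIF, against 12.46, 12.42 and 12.37 with LIF, a difference of -0.72 ± 0.26 (adjusted p = 0.0664). All 3 arrays without LIF were below those with LIF, and array 1 without LIF was the lowest; without it the difference was -0.49 (adjusted p = 0.225). It passed when the 6 wild type arrays were fitted alone (adjusted p = 0.0302), with the mean of the kept probes (adjusted p = 0.0118), and without array 1 or array 3 lacking LIF of the deleted cells (adjusted p = 0.00649 and 0.0473). A dimmer Nanog probe differed by -0.98 and passed. Dppa3, which also marks primordial germ cells, differed by -0.34 ± 0.15 (adjusted p = 0.129).

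**Figure D2:**
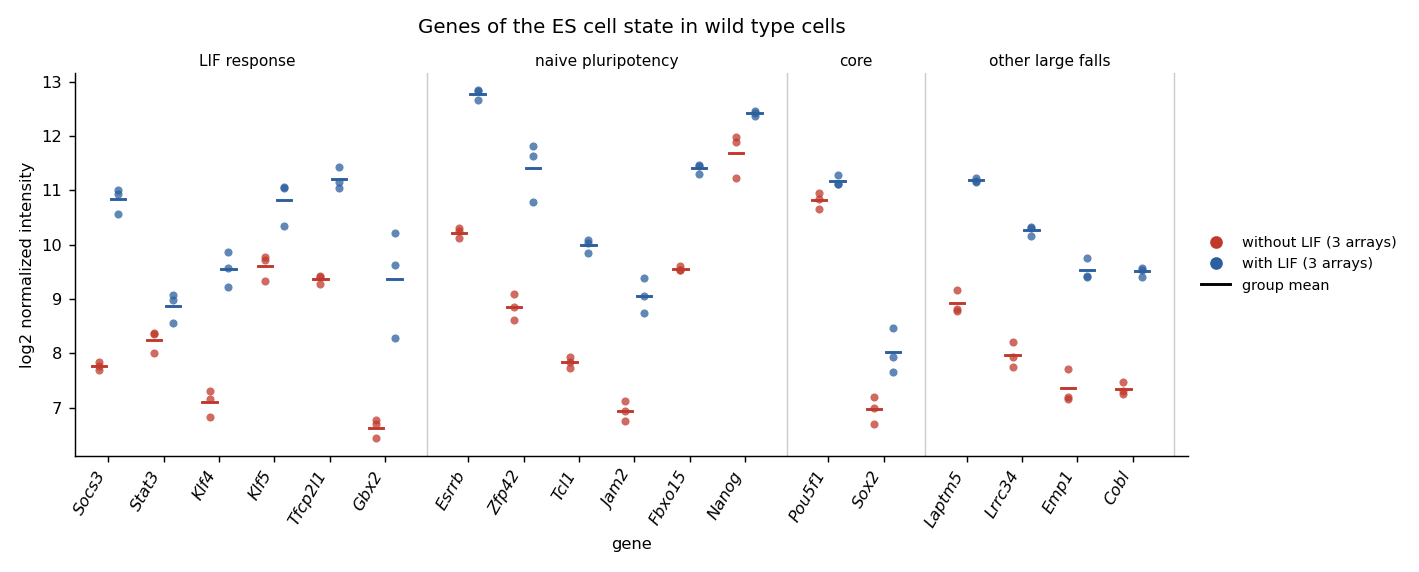
Log2 normalized intensity (y axis) of genes of the LIF response, naive pluripotency, core pluripotency and other large falls (x axis) on each of 3 wild type arrays without LIF (red, left) and 3 with LIF (blue, right); bars are group means. Socs3 sits between 7.70 and 7.83 without LIF and between 10.56 and 11.01 with LIF, while the 2 cultures of Pou5f1 lie close together.

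Core pluripotency factors, which naive and primed cells share, differed less. Pou5f1, which encodes Oct4, read 10.85, 10.66 and 10.94 without LIF, against 11.11, 11.29 and 11.13 with LIF, a difference of -0.36 ± 0.12 that did not pass (adjusted p = 0.0502). It lay close to the threshold and passed on log2 of the deposited values (adjusted p = 0.035), with a trended robust variance (adjusted p = 0.0348), with probes detected on all 12 arrays (adjusted p = 0.0444), and without array 1 or array 3 lacking LIF of the deleted cells (adjusted p = 0.0481 and 0.0444). Sox2, its partner on DNA, read 6.71, 7.00 and 7.19 without LIF, against 7.92, 8.47 and 7.66 with LIF (-1.05 ± 0.18, adjusted p = 0.000971), although a second probe at -0.51 did not pass. Of the 8 core genes tested, 3 fell, 1 rose and 4 did not pass (median -0.35). Dppa2, a chromatin-associated gene of pluripotent cells, was among those that fell (-0.94 ± 0.24, adjusted p = 0.0128), a call lost without array 3 with LIF (-0.68, adjusted p = 0.0522) and with median scaling (-1.03, adjusted p = 0.0928). Median scaling left 1 of the 8 core genes lower and 0 higher. Leaving out single arrays gave 1 to 5 falling core genes; it was 1 without array 3 with LIF and 5 without array 1 with LIF. The 1 rise, Lin28a, a regulator of the let-7 microRNAs (0.67 ± 0.22, adjusted p = 0.0465), was lost in 8 of the 12 omissions: arrays 2 and 3 without LIF, arrays 1 and 2 with LIF, and array 3 without LIF and arrays 1 to 3 with LIF of the deleted cells (adjusted p 0.057 to 0.177).

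Several genes outside these lists were among the 12 largest falls. Lrrc34, a leucine-rich repeat gene, read 8.21, 7.76 and 7.93 without LIF, against 10.30, 10.32 and 10.16 with LIF (-2.29 ± 0.13). Laptm5, which encodes a lysosomal membrane protein known from blood cells, read 9.17, 8.78 and 8.81 without LIF, against 11.18, 11.15 and 11.23 with LIF (-2.27 ± 0.12, adjusted p = 4.76e-08). Spink1, a trypsin inhibitor gene, fell by 2.24 ± 0.23 and was detected on 1 of 3 arrays without LIF. Lack of overlap between the cultures was a condition for entering these 12, so it adds no support to these falls. Emp1, an epithelial membrane protein gene (-2.18 ± 0.18), and Cobl, an actin nucleator (-2.16 ± 0.15), fell to a like extent; a dim second probe of Cobl differed by -0.33 and did not pass.

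Most of the tested genes of the formative and primed epiblast were higher without LIF. Of 6 tested, 4 rose, 1 fell and 1 did not pass (median 1.04). Fitted without the probe filter, 5 of all 12 genes of the list rose and 1 fell (median 0.39). Otx2, a homeobox factor that drives the exit from the naive state, read 10.20, 10.44 and 10.26 without LIF, against 8.57, 9.04 and 8.70 with LIF (1.53 ± 0.27, adjusted p = 0.00122). Pou3f1, which encodes Oct6, read 8.89, 9.54 and 9.45 without LIF, against 7.83, 7.76 and 8.14 with LIF (1.38 ± 0.18, adjusted p = 9.26e-05). The zinc finger gene Sall2 rose by 1.26 ± 0.10 and the SRY-box gene Sox4 by 0.83 ± 0.13; Sox4 did not pass with median scaling (0.68, adjusted p = 0.0844). Tcf15, a helix-loop-helix factor of early exit from the naive state, fell by 1.16 ± 0.14. Another 6 genes of the list did not enter the test, Zic2 and Cdh2 among them. Of these 6 genes, Zic5, Foxd3 and Sox3 were undetected on all 6 arrays. Fgf5, the classical marker of the primed epiblast, did not enter the test either. It read 6.48, 7.73 and 7.52 without LIF, where 2 of 3 arrays detected it. With LIF it read 6.00, 6.28 and 6.46, and no array detected it. No fold change is given for it; fitted without the probe filter it passed (adjusted p = 0.00973 over 19057 genes).

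DNA methylation genes split in the same comparison. Dnmt3b, the de novo methyltransferase of the epiblast, read 12.44, 12.82 and 12.77 without LIF, against 11.01, 11.30 and 11.58 with LIF (1.38 ± 0.16, adjusted p = 4.6e-05), with no overlap. Tet1, which oxidises methylcytosine, read 9.83, 9.31 and 9.41 without LIF, against 11.10, 10.64 and 10.64 with LIF (-1.27 ± 0.16, adjusted p = 7.69e-05). Dnmt3l, a cofactor of the de novo enzymes, fell by 0.68 ± 0.14. These were the only 3 of the 5 tested genes of the list that passed.

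Fgf8, a growth factor of the primitive streak on chromosome 19, was among the 12 largest rises. It read 7.61, 9.19 and 8.95 without LIF, against 6.77, 6.39 and 6.23 with LIF, where 1 of 3 arrays detected it (2.12 ± 0.32, adjusted p = 0.000374). Array 1 without LIF was the lowest of its group, and without it the difference was 2.61. On the list of primitive streak, mesoderm and Nodal pathway genes, 4 of 12 rose, 1 fell and 7 did not pass (median 0.25). That is 41.7% called, beside 21.1% of all genes. Foxh1, the DNA-binding partner of the Smads below Nodal, rose by 0.90 ± 0.19, and Acvr2b, a receptor for Nodal and activin, by 0.82 ± 0.13. The ligand gene Wnt3 was detected on 3 of 3 arrays without LIF and on none with LIF, at least 1.15-fold higher (adjusted p = 0.00592). Wnt3a, detected on none without LIF and on 3 of 3 with LIF, was at least 1.19-fold lower (adjusted p = 0.0274), a call lost without array 3 lacking LIF or arrays 1 or 3 with LIF (adjusted p 0.0642 to 0.129). Lefty1, an inhibitor of Nodal, read 8.49, 10.18 and 10.31 without LIF, against 8.12, 9.38 and 8.72 with LIF (0.92 ± 0.48, adjusted p = 0.198); the cultures overlapped through array 1 without LIF, and without that array the difference was 1.5 (adjusted p = 0.0211). Tbxt had no probe on the list of names used here, and Mixl1, Cer1, Mesp1 and Smad7 were undetected on all 6 arrays.

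Contractile genes were higher without LIF. Of 17 tested genes of the actin cytoskeleton, muscle isoforms and SRF or YAP targets, 10 rose, 1 fell and 6 did not pass, with a median of 0.95. Acta1, skeletal muscle actin, on chromosome 8, read 11.87, 11.09 and 11.06 without LIF, against 8.80, 8.71 and 9.15 with LIF (2.45 ± 0.29, adjusted p = 4.92e-05). Actc1, cardiac actin, read 9.05, 8.43 and 8.47 without LIF, against 7.01, 6.25 and 5.92 with LIF, where 1 of 3 arrays detected it (2.26 ± 0.27, adjusted p = 6.56e-05). Myl9, a regulatory light chain of smooth muscle and non-muscle myosin, read 9.45, 8.65 and 8.78 without LIF, against 6.90, 6.98 and 6.86 with LIF (2.05 ± 0.24, adjusted p = 4.53e-05). All 3 carry the CArG boxes printed above, and in all 3 array 1 was the highest of those without LIF. Without that array the difference of Acta1 was 2.19 (adjusted p = 0.000134).

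Other members of this list are not muscle isoforms alone. Tpm1, an actin-binding tropomyosin, read 12.00, 12.51 and 12.34 without LIF, against 9.85, 10.00 and 11.02 with LIF (1.99 ± 0.29, adjusted p = 0.0003). Ccn2, a matricellular target of YAP formerly called Ctgf, read 11.06, 11.36 and 11.31 without LIF, against 9.11, 9.14 and 9.64 with LIF (1.95 ± 0.16, adjusted p = 3.03e-06). Its relative Ccn1 rose by 1.43 ± 0.21, smooth muscle actin Acta2 by 1.41 ± 0.27 and the tropomyosin Tpm2 by 0.95 ± 0.15. Mylpf, the light chain of fast skeletal muscle, went the other way and fell by 1.61 ± 0.18. Actins are close in sequence, so probes of Acta1, Actc1 and Acta2 may share signal.

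**Figure D3:**
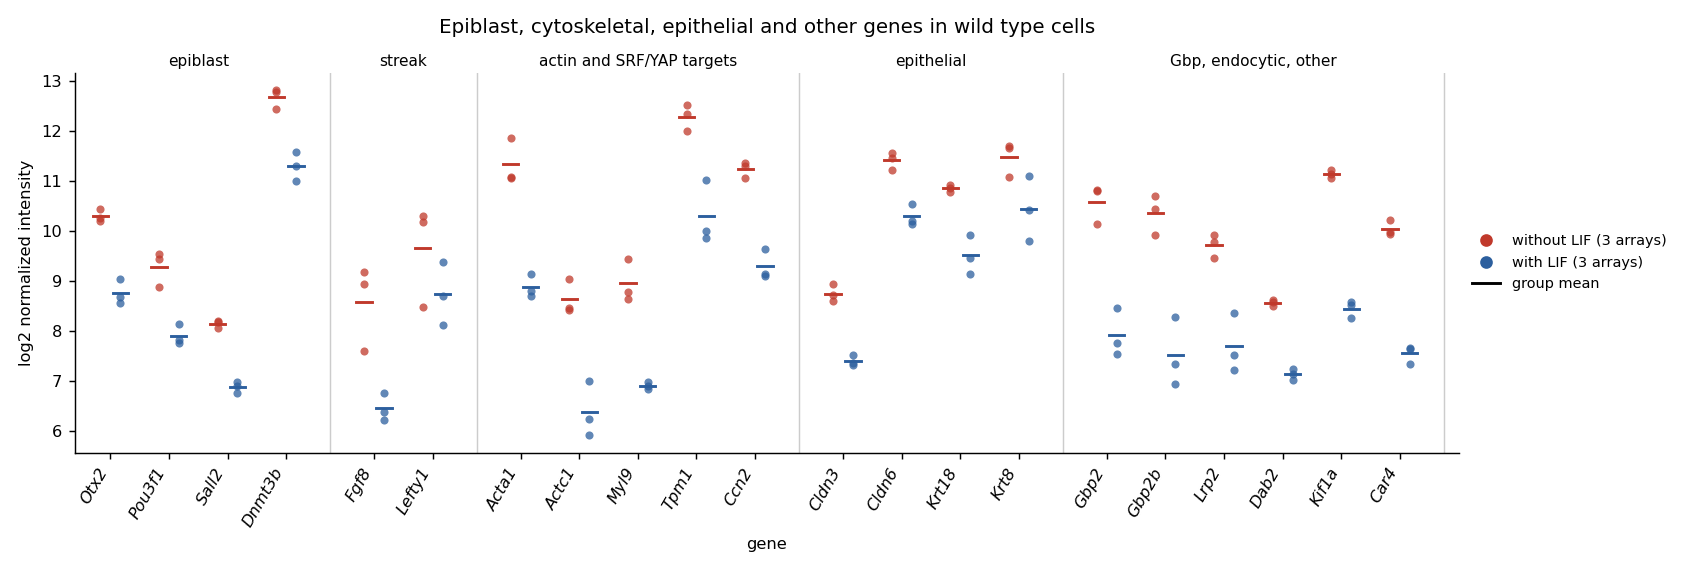
Log2 normalized intensity (y axis) of epiblast, streak, actin and SRF/YAP, epithelial and other genes (x axis) on each of 3 wild type arrays without LIF (red, left) and 3 with LIF (blue, right); bars are group means. Acta1 reads 11.06 to 11.87 without LIF and 8.71 to 9.15 with LIF, and the cultures of Lefty1 and Krt8 overlap.

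Epithelial adhesion genes rose in 8 of 11 tested cases, fell in 0 and did not pass in 3 (median 0.66). Cldn3, a tight junction claudin, read 8.60, 8.72 and 8.94 without LIF, against 7.52, 7.33 and 7.37 with LIF (1.35 ± 0.12, adjusted p = 3.92e-06). Cldn6, the claudin of pluripotent epithelium, rose by 1.12 ± 0.14, the epithelial splicing regulator Esrp1 by 1.04 ± 0.13, Cldn4 by 0.93 ± 0.17 and Ap1m2, a sorting adaptor of polarised cells, by 0.87 ± 0.13. With median scaling 3 of the 11 rose, and Cldn6 (0.99, adjusted p = 0.0511) and Esrp1 (0.91, adjusted p = 0.0646) did not pass. Keratins were counted on the trophoblast list and not on this one. Keratin 18, Krt18, read 10.87, 10.78 and 10.91 without LIF, against 9.15, 9.47 and 9.92 with LIF (1.34 ± 0.26, adjusted p = 0.00235), and lost its call with median scaling (1.20, adjusted p = 0.0653). Its partner Krt8 read 11.09, 11.69 and 11.67 without LIF, against 9.81, 10.42 and 11.11 with LIF (1.04 ± 0.34, adjusted p = 0.0426). The cultures of Krt8 overlapped, and the call was lost without arrays 2 or 3 lacking LIF, without arrays 1 or 2 with LIF, and without array 2 of either deleted culture (adjusted p 0.0541 to 0.159).

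Guanylate-binding proteins, GTPases known as interferon-induced, gave the largest rise. Gbp2b read 9.92, 10.70 and 10.45 without LIF, against 6.95, 7.36 and 8.28 with LIF (2.83 ± 0.28, adjusted p = 1.36e-05). Gbp2, its neighbour on chromosome 3 (probe ILMN_3122961), read 10.14, 10.81 and 10.82 without LIF, against 7.55, 7.76 and 8.47 with LIF (2.66 ± 0.24, adjusted p = 5.35e-06). Lack of overlap between the cultures was a condition for ranking among the largest rises. The close paralogs may share signal. On the interferon-stimulated list, which holds Gbp2, 4 of 7 genes rose, 2 fell and 1 did not pass (median 1.21). Irf1, the transcription factor interferon regulatory factor 1, read 9.76, 11.27 and 11.25 without LIF, against 9.09, 9.34 and 9.43 with LIF (1.48 ± 0.34, adjusted p = 0.00673); without array 1 lacking LIF the difference was 1.98, and with median scaling it was 1.32 and did not pass (adjusted p = 0.14). The oligoadenylate synthetase-like gene Oasl2 rose by 1.47 ± 0.23 and Bst2, the virus-tethering protein, by 1.21 ± 0.13. Ifitm1 and Ifitm2, interferon-induced transmembrane genes also found in germ cells, differed by -0.996 ± 0.12 and -0.89 ± 0.13 and passed as lower. Ifit1 and Irf7, further interferon-induced genes, were undetected on all 6 arrays.

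The other large rises, all among the top 12, belonged to no single list. Kif1a, a kinesin motor of axonal transport on chromosome 1 (probe ILMN_1233840), read 11.07, 11.14 and 11.23 without LIF, against 8.58, 8.26 and 8.52 with LIF (2.69 ± 0.12, adjusted p = 3.47e-08). Car4, a membrane-anchored carbonic anhydrase, read 10.22, 9.99 and 9.94 without LIF, against 7.64, 7.36 and 7.68 with LIF (2.49 ± 0.14, adjusted p = 7.69e-08). Slc40a1, the iron exporter ferroportin, rose by 2.23 ± 0.23, Ppp4r4, a regulatory subunit of protein phosphatase 4, by 2.13 ± 0.29 and Lpar4, a receptor for lysophosphatidic acid, by 2.04 ± 0.26. Ppp4r4 was detected on 1 of 3 arrays with LIF. Lrp2, the endocytic receptor megalin, read 9.46, 9.92 and 9.78 without LIF, against 7.23, 7.53 and 8.38 with LIF (2.01 ± 0.25, adjusted p = 6.89e-05).

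Lrp2 belongs to the primitive and visceral endoderm list, of which 4 of 13 tested genes rose, 1 fell and 8 did not pass (median 0.27). The share called was 38.5%, beside 21.1% of all genes. Lrp2 was among the rises. Its endocytic adaptor Dab2 rose by 1.43 ± 0.11, the matrix gene Sparc by 0.68 ± 0.11 (not passed with median scaling, adjusted p = 0.155), and the laminin chain Lama1 fell by 1.96 ± 0.10. Apoe rose by 0.85 ± 0.22 (adjusted p = 0.0148), a call lost without array 1 lacking LIF or array 2 with LIF (adjusted p = 0.0553 and 0.058). Among the endoderm factors of the list, Gata4 and Foxa2 were undetected on all 6 arrays, as were the markers Afp, Ttr and Pdgfra. Hnf4a was tested and did not pass (0.03 ± 0.15, adjusted p = 0.928), and Sox7 did not enter the test. Gata6 was detected on none of the arrays without LIF and 1 of 3 with LIF; it did not pass (adjusted p = 0.161), and passed without array 3 with LIF (adjusted p = 0.0325). Sox17 did not enter the test, with 0 arrays detecting it without LIF and 1 with LIF. Of 20 endoderm markers with a probe, 9 were detected on all arrays without LIF and 9 on all arrays with LIF. The summed linear intensity of all 20 was 6823 to 7552 without LIF and 4660 to 5324 with LIF. The part of these markers in other results was not tested.

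Markers of other lineages gave mixed counts. The share called was 58.3% for trophoblast, 62.5% for neuroectoderm and neurons and 0% for fibroblast and stroma, beside 21.1% of all genes. Of 12 tested trophoblast genes, 5 rose, 2 fell and 5 did not pass (median 0.05, -0.06 with median scaling, which left 1 higher and 1 lower), and 3 rose and 1 fell without arrays 2 or 3 lacking LIF or array 2 with LIF. Igfbp3, a secreted binder of insulin-like growth factors, rose by 1.62 ± 0.22, whereas the AP-2 factor Tfap2c fell by 1.21 ± 0.13. Among further trophoblast factors Gata3 rose (0.61 ± 0.17, adjusted p = 0.0197) and Tead4 fell (-0.46 ± 0.12, adjusted p = 0.0191). Both calls were lost with median scaling (adjusted p = 0.135 and 0.0834), and without arrays 2 or 3 lacking LIF or array 2 with LIF. That of Gata3 was also lost without array 3 with LIF. Elf5 and Hand1 were undetected on all 6 arrays, and Cdx2 did not enter the test. The trophoblast list summed to 7260 to 8402 without LIF and to 5618 to 6996 with LIF. The keratin genes Krt8, Krt18 and Krt19 were counted on this list. They were among its 5 rises and entered its sum. Among 8 tested genes of neuroectoderm and neurons, 3 rose, 2 fell and 3 did not pass (median 0.14). Sox11, a neural progenitor factor, rose by 1.32 ± 0.16, and the intermediate filament gene Nes by 0.84 ± 0.17, a call lost with median scaling (adjusted p = 0.107). The microtubule regulator Stmn2 (-0.85 ± 0.14) and the adhesion gene Ncam1 (-0.65 ± 0.14) fell, while Zic1, Hes5, Fabp7 and Snap25 were undetected throughout. That list summed to 2410 to 2581 without LIF and 2358 to 2494 with LIF. Fibroblast and stroma genes gave no call among 5 tested (median 0.04, -0.08 with median scaling), and 1 lower call with median scaling or without array 1 lacking LIF. Vim, the mesenchymal intermediate filament, differed by 0.04 ± 0.18, and 7 of 12 markers, Col1a1 and Col1a2 among them, were undetected on all 6 arrays. Its sum was 1453 to 1816 without LIF and 1512 to 1817 with LIF. What part cells of these types had in the changes was not tested.

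**Figure D4:**
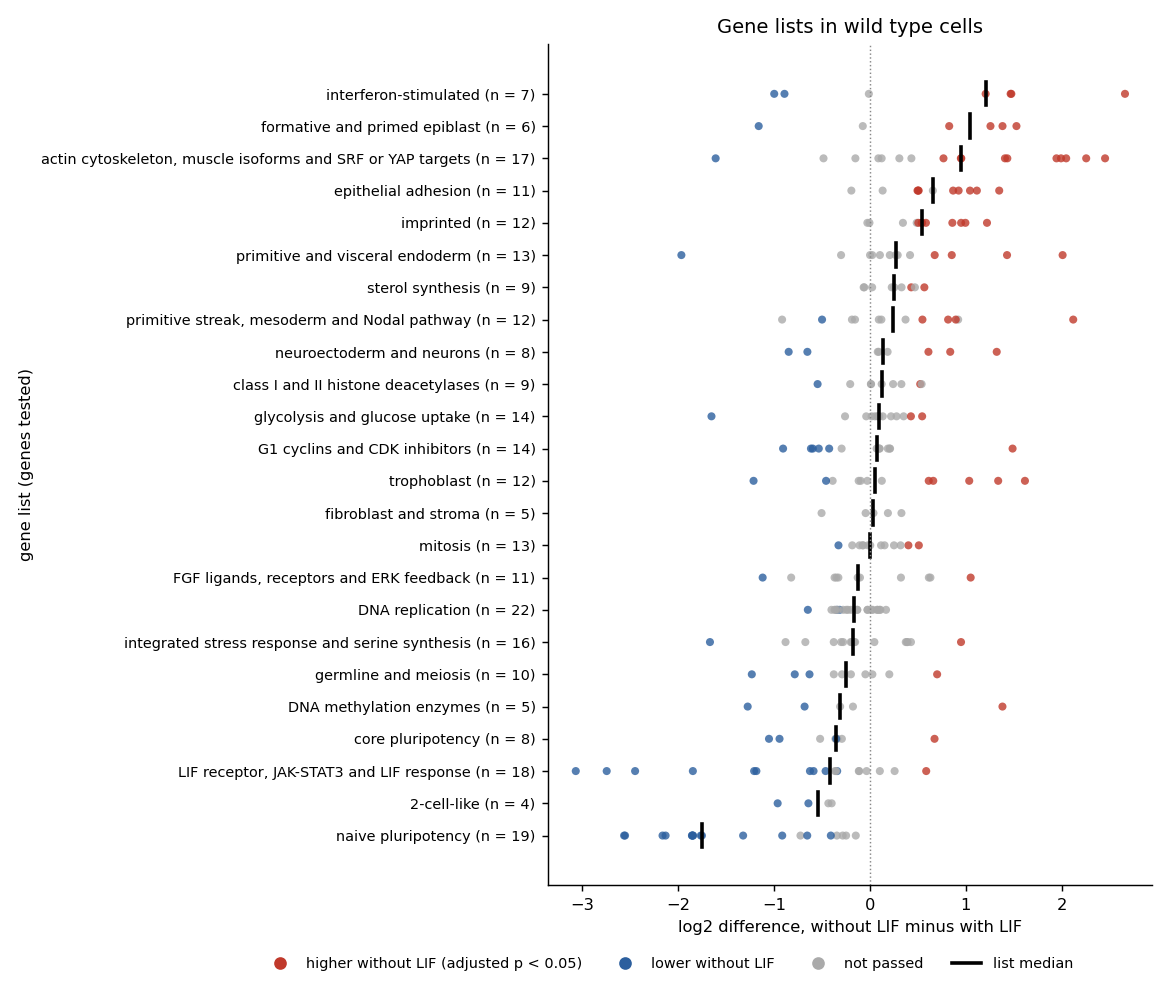
Log2 difference without LIF minus with LIF in wild type cells (x axis) of each tested gene in 24 lists (y axis, with the number tested); red and blue points passed as higher and lower, grey points did not, and black bars are list medians. Naive pluripotency has the lowest median, -1.75, and the interferon-stimulated list the highest, 1.21.

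Imprinted genes, expressed from 1 parental allele, rose in 8 of 12 tested cases, with 0 lower and 4 not passed (median 0.54). Peg3, a paternally expressed zinc finger gene, read 9.11, 9.04 and 8.79 without LIF, against 8.13, 7.50 and 7.64 with LIF (1.22 ± 0.15, adjusted p = 8.37e-05). The growth factor Igf2 rose by 0.95 ± 0.13 and the growth inhibitor Grb10 by 1.00 ± 0.17. Grb10 did not pass with median scaling (0.85, adjusted p = 0.0844), which left 3 of the 12 higher. Of 10 germline and meiosis genes 3 fell, 1 rose and 6 did not pass (median -0.24): Tex19.1, which restrains transposons in germ cells (-1.23 ± 0.18), the RNA-binding gene Dazl (-0.78 ± 0.14) and the homeobox gene Rhox5 (-0.63 ± 0.12) fell, and Dnd1, a germ cell RNA-binding gene, rose (0.70 ± 0.20), a call lost without arrays 2 or 3 of either culture (adjusted p 0.065 to 0.0916). The share called on the germline list was 40%, beside 21.1% of all genes. On the 2-cell-like list 2 of 4 genes fell, 50% called, and 2 did not pass (median -0.54). Those that fell were the telomere-associated Zscan4c (-0.96 ± 0.17) and Tcstv3 (-0.64 ± 0.15).

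Growth and cell cycle lists had small median differences, and their counts stand beside 21.1% of all genes called, 11.1% higher and 10.0% lower. In the FGF and ERK list, 1 of 11 genes rose and 1 fell, 18.2% called (median -0.13, and 0.07 without array 1 lacking LIF): the receptor gene Fgfr2 rose by 1.05 ± 0.20 and the ERK-responsive factor Etv4 fell by 1.12 ± 0.24, and neither passed with median scaling (adjusted p = 0.13 and 0.0671). A dimmer Fgfr2 probe differed by 0.32 and did not pass. Of 14 genes of G1 cyclins and CDK inhibitors, 1 rose and 5 fell, 42.9% called, which is above the 21.1% of all genes (median 0.08, -0.06 with median scaling). Ccnd2, cyclin D2, read 8.85, 8.77 and 8.82 without LIF, against 6.85, 7.29 and 7.83 with LIF (1.49 ± 0.20, adjusted p = 0.000157). The S-phase factor E2f1 (-0.90 ± 0.15), cyclin D3 (Ccnd3, -0.61 ± 0.14) and cyclin E1 (Ccne1, -0.59 ± 0.14) fell, and Ccne1 did not pass with median scaling (adjusted p = 0.123). A dimmer Ccnd3 probe differed by -0.11 and did not pass. DNA replication genes fell in 3 of 22 cases, 13.6% (median -0.16), led by Rrm2, a subunit of ribonucleotide reductase (-0.65 ± 0.10). A dimmer Rrm2 probe differed by -0.14 and did not pass (adjusted p = 0.58). Without array 2 or array 3 with LIF 1 of the 22 fell. Mitosis genes rose in 2 and fell in 1 of 13, 23.1% called (median 0.004, -0.13 with median scaling, which left no call). Cdc20, an activator of the anaphase-promoting complex, rose by 0.51 ± 0.12, a call lost with median scaling (adjusted p = 0.313).

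On metabolic and deacetylase lists the share of called genes, 12.5% to 22.2%, stood beside 21.1% of all genes, and single members gave the larger values. Among 14 genes of glycolysis and glucose uptake 2 rose and 1 fell (median 0.09). Pfkp, the platelet-type phosphofructokinase, read 9.40, 9.39 and 9.38 without LIF, against 11.07, 11.16 and 10.89 with LIF (-1.65 ± 0.13, adjusted p = 2.25e-06). The liver-type isoform Pfkl went up by 0.55 ± 0.13, which did not pass with median scaling (0.38, adjusted p = 0.191). A dimmer Pfkl probe differed by 0.09 and did not pass, and neither did the mean of the kept probes (adjusted p = 0.0656). Of 16 genes of the integrated stress response and serine synthesis 1 rose and 1 fell (median -0.18), the lipoprotein receptor Vldlr upward (0.95 ± 0.14) and the stress-induced regulator Nupr1 downward (-1.67 ± 0.15); without array 1 with LIF 2 rose and 5 fell. Vldlr did not pass with median scaling (adjusted p = 0.0897). Sterol synthesis genes rose in 2 of 9 cases (median 0.25), in none of the 9 without any 1 of the arrays lacking LIF or without array 3 with LIF. Among 9 histone deacetylases Hdac5, a class II enzyme that shuttles out of the nucleus, rose by 0.53 ± 0.10, Hdac6, the cytoplasmic tubulin deacetylase, fell by 0.54 ± 0.13, and Hdac2 differed by -0.20 ± 0.12 (adjusted p = 0.248). Hdac5 did not pass with median scaling (adjusted p = 0.257). Its dimmer probes differed by 0.39 and 0.22 and did not pass.

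The same withdrawal in the deleted cells showed where the wild type response was larger or smaller. In deleted cells 1027 of 9527 genes changed without LIF (10.8%): 479 were higher (5.03%) and 548 lower (5.75%). Of the 2010 genes changed in wild type cells, 94.4% had the same sign in deleted cells, beside 74.4% of all genes, and 788 were called the same way in both, which is 39.2% of the wild type and 76.7% of the deleted list. The difference between the responses was tested as an interaction and passed for 5 genes (0.0525%), while 722 had an unadjusted p under 0.05. Genotype went with the day label, so deletion, day and any difference in OHT exposure cannot be told apart. Socs3 changed by -2.77 in deleted cells, beside -3.07 in wild type cells, and the difference between the responses did not pass (adjusted p = 0.847). Otx2 and Fgf8 differed by 0.33 and 0.30 in deleted cells, where they were not called, and their interactions did not pass either (adjusted p = 0.476 and 0.246).

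Laptm5 had the interaction with the lowest adjusted p. It changed by -0.32 in deleted cells and by -2.27 in wild type cells, a difference of 1.94 (adjusted p = 0.000217). That difference also passed under all 21 alternative settings in which it was tested. Car14, a transmembrane carbonic anhydrase, read 8.35, 8.25 and 8.45 without LIF, against 6.72, 6.74 and 6.65 with LIF in wild type cells (1.65 ± 0.11, adjusted p = 2.75e-07), and differed by 0.20 in deleted cells, so that the responses differed by -1.44 (adjusted p = 0.000796). It passed in 19 of 20 alternative settings, the exception being median scaling (adjusted p = 0.448). The other 3 genes, each at an adjusted p of 0.0452, passed in fewer alternative settings. Ccn2 rose by 0.53 in deleted cells, beside 1.95 in wild type cells (-1.41, 6 of 21 settings). Tgm1, a transglutaminase of epithelia, rose by 0.62 in deleted cells and fell by 0.84 in wild type cells (1.46, 8 of 21). Npw, the gene of neuropeptide W, fell by 0.57 in deleted cells and rose by 0.48 in wild type cells (-1.05, 8 of 20).

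**Figure D5:**
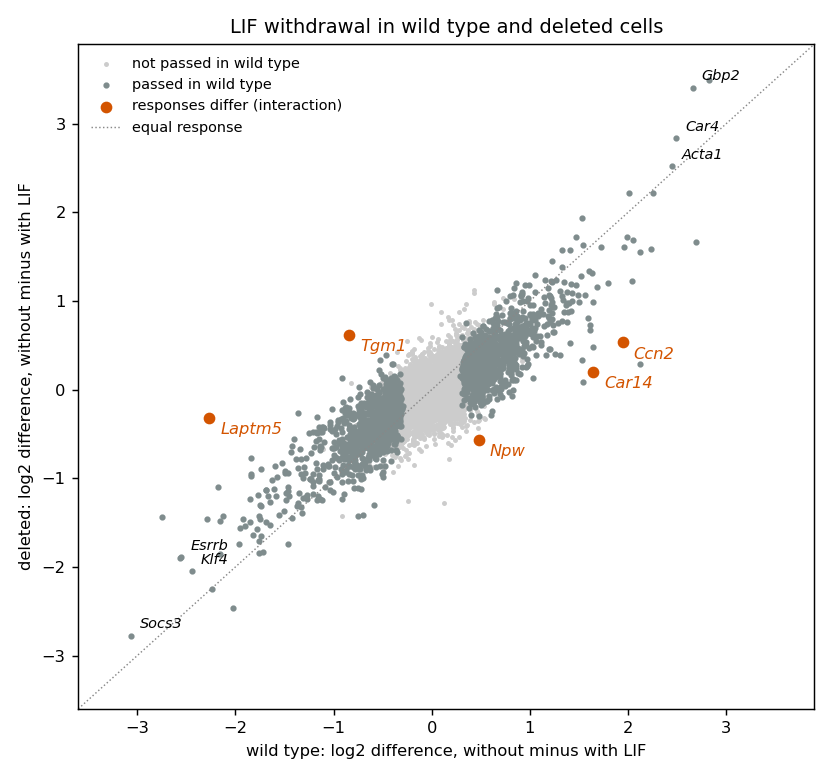
Log2 difference without LIF minus with LIF in deleted cells (y axis) against that in wild type cells (x axis) for 9527 genes; the dotted line marks equal responses, dark points passed in wild type cells and orange points are the 5 genes whose responses differed. Socs3 lies near the line at -3.07 and -2.77, and Laptm5 lies off it at -2.27 and -0.32.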

How the data were processed

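RNA of E14 ES cells was measured on 12 one-colour Illumina bead arrays, 3 in each of 4 groups, with GenomeStudio named by the submitters' processing notes without version or settings. The authors deposited processed intensity values keyed by sample, on a linear scale and the same in distribution on every array; how they were normalized is not given in the sources used here. A second deposited table held non-normalized intensity values and a detection p-value per probe, per the file headers. Its column names conflicted with the sample labels, so each column was matched to a sample by rank order (Spearman's rho was 1 for the match and 0.836 or less otherwise).

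The processed intensities were corrected with normexp (offset 50), put on the log2 scale and quantile normalized. Probes detected (p-value under 0.05) on 3 of 3 arrays in 1 or more groups were kept, 15999 of 45281. Of all probes 34885 had 1 gene symbol, 18 several and 10378 none. The platform's gene IDs of 34807 probes matched RefSeq, which changed 0 symbols; probe positions were not analysed here. Each gene took its kept probe of highest mean, giving 9527 genes. Log2 values near the detection floor (6.44 to 6.61) are compressed, so differences of dim genes are understated. A called gene undetected on all arrays of 1 culture is given as "at least", from the other culture's mean over the floor of detected probes, and other such genes get no fold change.

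In R 4.3.3, limma 3.58.1 (lmFit, eBayes) fitted 4 group means to the 12 arrays with 8 residual degrees of freedom, two-sided, with Benjamini-Hochberg adjustment over 9527 genes at 0.05, for the wild type LIF contrast and its interaction with genotype. Errors are moderated standard errors, with a median of 0.13; the number of arrays limits the precision. On simulated data for the wild type contrast over 9527 genes, the test found 2 of 50 genes given a 1.3-fold change, 27 of 50 given 1.5-fold, 49 of 50 given 2-fold and 50 of 50 given 4-fold, with 5 false among 133 calls. The simulated noise was independent between genes and arrays, and far fewer genes were changed than were called in the data. These counts are therefore not the error rate of the reported calls.

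Genes named in the text were the 12 largest rises and falls that passed without overlap of the cultures, up to 5 passing genes of each list in each direction, a fixed set of LIF, pluripotency and lineage genes, and genes with a called interaction. Tbx3, Nr5a2, Klf2, Prdm14, Dppa3, Pecam1, Manba, Acta2, Ccn1, Tpm2, Bcl3, Lifr and Il6st were added after their values were seen, as were undetected markers. Hnf4a and markers that did not enter the test were added as well, and were not followed across the alternatives. Comparisons, members and lists were chosen with earlier results of these data known. Alternatives varied the samples fitted, block, background correction, scaling, probe filter, probe rule, variance model and each array. Same-numbered wild type arrays deviated together at r = 0.52, -0.04 and 0.36, so replicate numbers were not taken as pairs.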

Additional observations from a re-analysis of the deposited data

Results flagged for a closer look

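In 5 genes the response to LIF withdrawal differed between deleted and wild type cells by limma's interaction test, and these are the deleted minus the wild type differences on the log2 scale. Laptm5, the lysosomal membrane protein gene, differed by 1.94 and Tgm1, the transglutaminase gene, by 1.46. Car14, the carbonic anhydrase gene, differed by -1.44, Ccn2, the matricellular YAP target, by -1.41, and Npw, the neuropeptide W gene, by -1.05. Across the settings tried, the difference of Laptm5 lay between 1.85 and 2.08 and that of Car14 between -2.10 and -1.18.

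Probes without a single gene symbol entered none of the comparisons. Of 2079 such kept probes, 328 changed between the wild type cultures (15.8%), 167 higher and 161 lower without LIF, beside 2554 of the kept probes with a symbol (18.3%). Their genes are not named here.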

How the results depend on the processing

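The count of 2010 genes changed in wild type cells stayed within 1.5 times under every alternative except replicate number as a block (3021 genes, among them all 2010) and median scaling (717 genes, 669 of them shared, with a median of all genes of -0.09). Leaving out 1 array at a time gave 1350 to 2228 genes. A fit of the 6 wild type arrays alone gave 1406, and no probe filter gave 1497 of 19057. The interaction count of 5 genes was 13 with the replicate block, 8 on log2 of the deposited values, 1 with median scaling, 1 with probes detected on all 12 arrays, and 2 to 9 leaving out single arrays. With the replicate block 4 further named genes passed: Nanog, Pou5f1, Lefty1 and Dppa3 (adjusted p 0.014, 0.0273, 0.0142 and 0.0375). It is given only here, because 1 same-numbered wild type pair did not deviate together and array 2 without LIF followed array 3 with LIF more closely (r = 0.47); same-numbered deleted arrays deviated together at r = 0.57, 0.34 and 0.38, each the highest for its number.

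Of 121 named genes that passed, 81 passed under every alternative in which they were tested, 102 under every omission of 1 array, and 0 changed sign. Only 113 of the 130 genes followed could be tested with probes detected on all 12 arrays. Median scaling lost 36 calls, more than any other setting. Values that did not pass and changed sign were those of Vim (-0.11 with median scaling, and -0.11 to 0.18 leaving out single arrays), Lifr (-0.23 to 0.024) and Il6st (-0.12 to 0.084). The cause of these shifts was not tested. A slide block was not run, because no header names a slide. Signal over background limits dim genes: 71 called genes in each direction were undetected on all arrays of 1 culture.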

Other observations

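Further members of the lists passed in wild type cells. Keratin 19 (Krt19) read 8.59, 8.68 and 8.71 without LIF, against 7.83, 8.03 and 8.14 with LIF (0.66 ± 0.15), and the synaptic vesicle gene Syp rose by 0.61 ± 0.12. The imprinted Notch-family ligand gene Dlk1 rose by 0.58 ± 0.10, and the glucose transporter Slc2a3 by 0.43 ± 0.11. Cdk2, the S-phase kinase, fell by 0.42 on the log2 scale (SE 0.10). With median scaling none of these 5 passed. Manba, a lysosomal mannosidase gene often listed with naive markers, read 8.39, 8.35 and 8.37 without LIF, against 9.41, 10.52 and 10.71 with LIF (-1.84 ± 0.29, adjusted p = 0.000491).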
